A study of Mus musculus with 6 samples.

Results

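Microexons are internal exons so short that they add only a few amino acids to a protein. Here they are the cassette exons of 27 nt or less in the exon skipping table of the deposited splicing analysis, chosen by the length of the exon between its coordinates and by no measured value. The rule gave 738 of the 29134 exon skipping events, or of 40961 events of all 5 types, in 669 different exons of 552 genes, since 1 exon can be listed with more than 1 pair of neighbouring exons. Hippocampal libraries of 2 groups were compared, 3 from control mice and 3 from mice whose label is L-DL KD. L-DL is the long isoform of hnRNP DL, an RNA-binding protein encoded by Hnrnpdl. All were male C57BL/6 J mice injected on both sides in CA1 at 8 weeks of age with adeno-associated virus. The virus carried control shRNA in the control group and L-DL shRNA in the other, and the control virus had the higher titre. The L-DL shRNAs stood in tandem behind H1 promoters, which are not specific to neurons, on a vector that marks neurons by zsGreen from a CamkIIα promoter. The labels call the controls wild type, and call the other mice knockout in one field and knockdown in another. Virus went into CA1 while RNA was taken from hippocampus, so that the effect of the shRNA, the titre and any shift between cell types or regions cannot be told apart in these libraries.

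Neurons include many microexons that other cells skip. An exon of this size is too short to hold the usual exonic enhancers and is recognised with the help of intronic sequences and of neuronal splicing proteins, above all SRRM4 and SRRM3. These bind next to the upstream 3′ splice site with U2AF and SRSF11, while PTBP1 represses many of the same exons outside neurons. Most microexons keep the reading frame and lie on the surface of proteins of synapses, the cytoskeleton and membrane traffic, where they alter binding between proteins.

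Inclusion was measured as PSI, the share of transcripts that contain the exon, computed for each library from the reads that join the exon to its neighbours (inclusion counts) and those that join the neighbours directly (skipping counts), each divided by the effective length of its form. Of the 738 events, 452 averaged at least 20 of these counts per library, with at least 1 on average for each form, and were tested. The other 286 were not tested, 191 because of a mean under 20 and 95 because one form was nearly missing. The tested events lay in 422 exons, and 421 exons are described below by the event with the most counts, with a median over exons of 84.2 counts per library. Libraries of the splicing table carry no replicate numbers and are given in the order in which that table lists them. Labels do not say more of the samples than their replicate number, so that p-values measure the spread between these 3 samples of each group.

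The series as a whole sets limits on what follows. Reads counted on genes ranged from 16052529 to 17913064 per library. The count of the targeted gene did not pass the test: Hnrnpdl was at 176, 183 and 170 CPM (reads scaled to a common library total by TMM) in the controls and at 217, 150 and 173 CPM in the libraries labelled L-DL KD (log2 fold change 0.03, standard error 0.12, adjusted p = 0.898, edgeR). This count does not separate the long isoform. The study assessed the knockdown by immunoblot of L-DL protein in injected hippocampus and reported reduced L-DL. Protein was not measured in these libraries. All 12 microglial marker genes rose, with a summed level of 1437 to 1796 CPM in the controls and 3013 to 3925 CPM in the other libraries. Likewise 11 of 13 neuronal marker genes fell while 2 rose (6794 to 7171 against 4882 to 5580 CPM). In bulk tissue, fewer cells of a type and less RNA per cell cannot be told apart. Of all 17621 genes tested, 15% fell and 15.6% rose at the same threshold. Of the other lists, 3 of 6 CA1 pyramidal genes fell, 4 of 8 astrocyte genes fell and 1 rose, 4 of 6 endothelial genes rose and 2 of 8 oligodendrocyte genes rose. In addition, 2 of 6 dentate granule genes fell and 2 rose, and 0 of 6 choroid plexus genes passed the test in either direction. The choroid plexus sum nevertheless varied widely between single libraries of both groups. It spanned 440 to 4625 CPM among controls and 30.2 to 5179 CPM among the others. The part of these marker shifts and of this spread in the inclusion of microexons was not tested, and they stand beside every result below.

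The sequences of the exons that changed most clearly show how little coding sequence is at stake. Each line gives the exon in capitals between the last and first 30 bases, or fewer, of the neighbouring coding exons in lower case, 5′ to 3′ on the strand of the gene, from GENCODE M21 transcripts on GRCm38. The first 8 are the coding exons past the adjusted threshold, followed by the 12 nt exon of Gramd1b, the paralogue of Gramd1a, the 27 nt exon of Git1 and the 6 nt exons of Nsfl1c and Ap2m1.
Idh3g, 12 nt: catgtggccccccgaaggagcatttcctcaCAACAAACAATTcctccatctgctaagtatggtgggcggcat
Snap91, 15 nt: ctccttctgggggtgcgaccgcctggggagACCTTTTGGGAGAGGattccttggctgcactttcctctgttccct
Shank2, 21 nt: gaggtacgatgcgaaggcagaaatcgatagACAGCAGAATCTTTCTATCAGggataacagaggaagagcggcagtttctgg
Slc8a2, 18 nt: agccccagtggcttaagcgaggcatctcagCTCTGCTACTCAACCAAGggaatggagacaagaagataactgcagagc
Cadps, 12 nt: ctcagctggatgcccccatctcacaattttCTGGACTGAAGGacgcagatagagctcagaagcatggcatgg
Abi2, 18 nt: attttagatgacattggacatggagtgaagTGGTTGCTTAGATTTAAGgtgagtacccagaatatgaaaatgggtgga
Gramd1a, 12 nt: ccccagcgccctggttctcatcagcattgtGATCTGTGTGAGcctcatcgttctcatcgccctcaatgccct
Dctn1, 15 nt: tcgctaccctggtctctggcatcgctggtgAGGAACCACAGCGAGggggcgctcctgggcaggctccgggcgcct
Gramd1b, 12 nt: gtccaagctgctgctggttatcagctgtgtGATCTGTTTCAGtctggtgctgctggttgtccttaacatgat
Git1, 27 nt: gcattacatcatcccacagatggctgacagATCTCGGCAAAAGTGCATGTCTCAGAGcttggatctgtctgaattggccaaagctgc
Nsfl1c, 6 nt: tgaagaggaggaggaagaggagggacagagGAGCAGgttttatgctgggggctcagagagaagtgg
Ap2m1, 6 nt: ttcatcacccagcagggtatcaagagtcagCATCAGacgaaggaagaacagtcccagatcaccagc
Their positions on GRCm38 are chrX:73782298-73782309 (minus strand) for Idh3g, chr9:86798830-86798844 (minus) for Snap91, chr7:144408056-144408076 (plus) for Shank2, chr7:16150574-16150591 (plus) for Slc8a2, chr14:12517804-12517815 (minus) for Cadps and chr1:60438942-60438959 (plus) for Abi2. Gramd1a is at chr7:31133220-31133231 (minus), Dctn1 at chr6:83197319-83197333 (plus), Gramd1b at chr9:40300440-40300451 (minus), Git1 at chr11:77502829-77502855 (plus), Nsfl1c at chr2:151502455-151502460 (plus) and Ap2m1 at chr16:20540808-20540813 (plus). All 12 are coding exons whose length is a multiple of 3. Among the 422 exons with a tested event, 362 (85.8%) had such a length, against 58.8% of tested skipped exons of 28 to 51 nt, 43.8% of those of 52 to 250 nt and 45.8% of those above 250 nt. The last base of the exon was G in 81.5% of these exons, and in 78.1% of those of 28 to 51 nt. Median GC content was 47.6% in microexons and 50.6% in exons of 52 to 250 nt. By the annotation, 572 of the 669 exons are coding, 13 are partly coding, 20 lie in a 5′ UTR and 4 in a 3′ UTR, 30 lie in non-coding transcripts, 29 in transcripts marked for nonsense-mediated decay and 1 in no annotated transcript.

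Microexons were included less in the L-DL KD libraries than in the controls. Over the 421 exons, median PSI was 0.680, 0.693 and 0.672 in the controls and 0.557, 0.524 and 0.517 in the libraries labelled L-DL KD, so that the groups did not overlap. Longer skipped exons had medians of 0.911, 0.904 and 0.910 against 0.896, 0.891 and 0.893. Summed over all microexons, inclusion counts made up 67.8, 69.0 and 67.9% of the junction counts in the controls and 61.4, 59.2 and 58.4% in the other libraries. For longer exons these shares lay between 90.2 and 90.3% and between 89.7 and 90.0%. Of the tested microexon events, 378 of 452 (83.6%) had a lower mean PSI, against 52.7% of all 18829 tested events. The median PSI difference, L-DL KD minus control, was -0.0753 over microexon events and -0.0017 over all events.

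The test of the change of inclusion, edgeR's quasi-likelihood test on the junction counts, adjusted by Benjamini-Hochberg for the 18829 events tested, called 10 microexon events lower and 0 higher at an adjusted p under 0.05 (2.21% of those tested, with 0.186% of all events called lower and 0.069% called higher). These 10 were 28.6% of the 35 events called lower, and microexons were 2.4% of the events tested. At the unadjusted p of 0.001 that the study used as its threshold, 37 microexon events were lower and 0 higher (8.19%, against 0.738% lower and 0.239% higher of all events). At an unadjusted p under 0.05, 167 were lower (36.9%, against 8.30%) and 9 higher (1.99%, against 4.96%). In 191 events (42.3%, against 10.8% of all events) each library labelled L-DL KD was below each control, and in 14 (3.10%, against 7.61%) each was above. For 1 event alone, the exact permutation test of 3 against 3 libraries can reach no p under 0.1. The count at the adjusted threshold depends on single libraries, as it lay between 0 and 12 when each library was left out in turn, with 0 without control library c. At the unadjusted threshold it lay between 13 and 33, with 0 higher each time. DESeq2 called 25 lower, limma 2 and edgeR with TMM scaling of the columns 22, each with 0 higher. Over all events these tests called 87 lower and 25 higher, 20 lower and 1 higher, and 89 lower and 17 higher, against 35 lower and 13 higher in the test above.

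**Figure D1:**
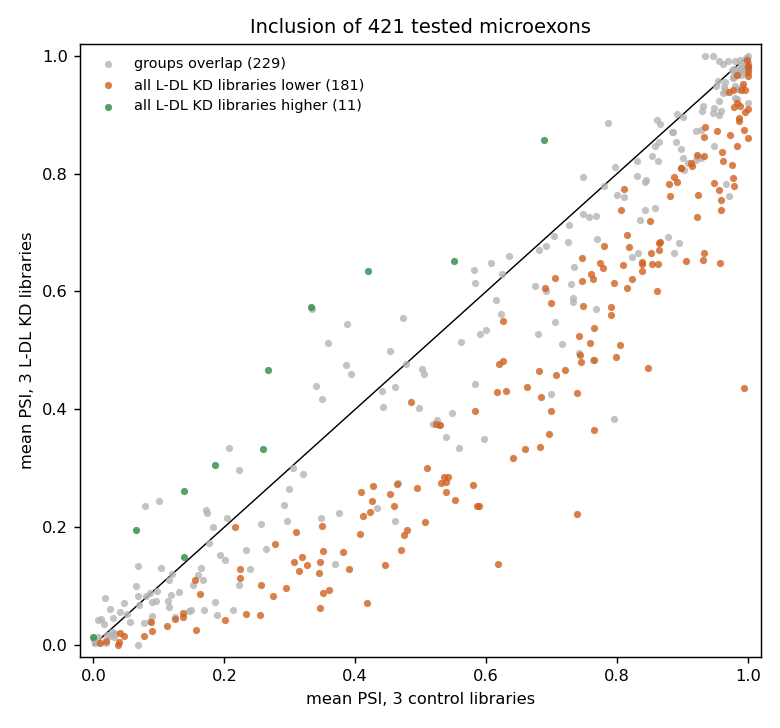
Mean PSI of each of the 421 tested microexons in the 3 control libraries (x axis) and the 3 libraries labelled L-DL KD (y axis), both as a share from 0 to 1, with the line of equal values. The 181 exons whose L-DL KD libraries were all lower lie below the line at all levels of inclusion, and 11 whose L-DL KD libraries were all higher lie above it.

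The lower inclusion was seen at every level and depth examined. Microexons had a lower mean PSI in 70.3% of events with a mean PSI up to 0.2 over all libraries, and in 84.4, 85.1, 89.1 and 87.7% of events in the next 4 bins of 0.2. Longer skipped exons in the same bins were lower in 49.2, 56.3, 54.1, 56.1 and 58.0%. The largest differences were at middle levels, with medians of -0.185, -0.154 and -0.142 for microexons of mean PSI 0.2 to 0.4, 0.4 to 0.6 and 0.6 to 0.8. Events with 20 to 50 counts per library were lower in 73.6%, those with 50 to 100 in 85.3%, those with 100 to 200 in 86.1% and those with more in 96.2%. The median PSI difference was smaller at higher depth, at -0.0965, -0.0733, -0.0665 and -0.0585 in the same order. Of the 421 exons, 109 had a control PSI above 0.9, 46 had one below 0.1 and 266 lay between. The median SD between libraries was 0.0428 in the controls and 0.0531 in the other group. Mean PSI was below that of the controls by over 0.1 in 174 exons and by over 0.3 in 21, and above it by over 0.1 in 14.

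By length, the share of events with all L-DL KD libraries lower was 48.0% of 50 events of 3 to 9 nt, 46.2% of 91 events of 10 to 15 nt, 46.7% of 135 events of 16 to 21 nt and 35.2% of 176 events of 22 to 27 nt. It was 19.9% of 953 events of 28 to 51 nt, 11.8% of 8599 events of 52 to 250 nt and 11.4% of 586 longer ones. The median PSI difference was -0.106, -0.0725, -0.0904 and -0.0495 in the 4 classes of microexons, -0.0119 at 28 to 51 nt and -0.0032 at 52 to 250 nt. Length and the host gene could be looked at apart, because 739 tested events were longer skipped exons of the same host genes. Of these, 17.3% had all L-DL KD libraries lower and 8.39% all higher, with a median difference of -0.0060. In other genes, 12.2% of 9399 longer exons were lower and 6.82% higher (median -0.0037). Of microexon events that keep the frame, 174 of 390 (44.6%) had all L-DL KD libraries lower and 14 (3.59%) all higher (median -0.0852). Of those that do not, 17 of 62 (27.4%) had all lower and 0 all higher (median -0.0385). Over all events these shares were 10.8 and 7.61%. Mean PSI was lower in 83.6% of events that keep the frame and in 83.9% of those that do not.

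**Figure D2:**
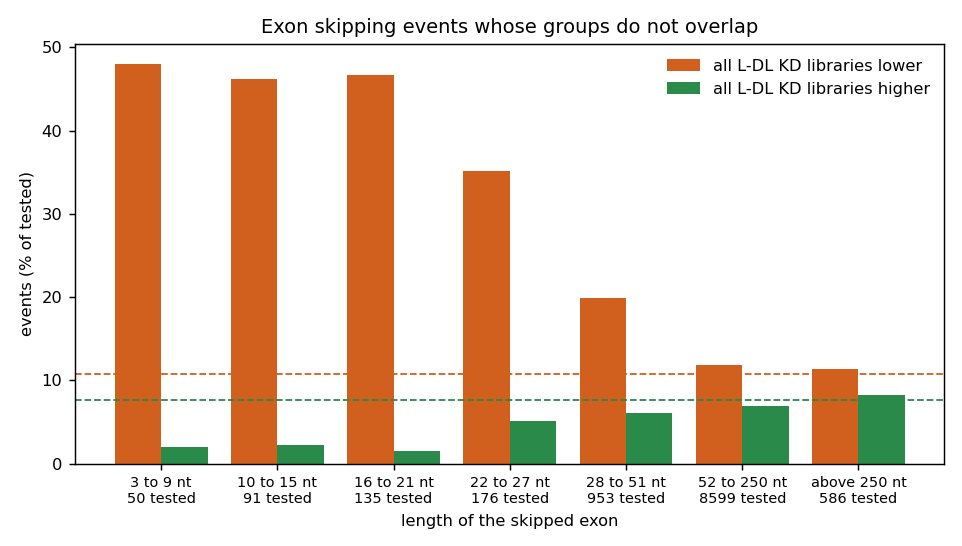
Share of tested exon skipping events, in percent, in which each library labelled L-DL KD lay below (orange) or above (green) each control, by the length of the skipped exon, with the number tested under each pair of bars. Dashed lines are the shares over all 18829 events, 10.8 and 7.61%, and the bars for exons up to 21 nt stand at 46.2 to 48.0% lower and 1.48 to 2.20% higher.

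The exon with the smallest adjusted p belonged to Idh3g, a regulatory subunit of the isocitrate dehydrogenase of the citric acid cycle. Its 12 nt exon 3 had a PSI of 0.948, 0.967 and 0.957 in the controls and 0.735, 0.649 and 0.559 in the libraries labelled L-DL KD, at 522 to 674 counts per library. It was near full inclusion in every control, and the log2 ratio of inclusion to skipping fell by 3.59 (standard error 0.36, adjusted p = 0.00611). It was the 1 exon among the 10 that also passed with limma (adjusted p = 0.0482), and the count of Idh3g itself did not pass the test (log2 fold change 0.02, adjusted p = 0.839).

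Exons of postsynaptic and ion transport genes were among those that fell. Shank2, a scaffold of the postsynaptic density, had a 21 nt exon at 0.980, 1 and 1 in the controls and at 0.579, 0.487 and 0.244 in the other libraries, from 41 to 66 counts per library. This was the largest difference among the 421 exons, -0.556, in a gene whose own count also fell (log2 fold change -0.56, adjusted p = 0.00121); the exon's adjusted p was 0.0161. Slc8a2, a sodium/calcium exchanger of the plasma membrane, had an 18 nt exon at 0.835, 0.885 and 0.863 in the controls and 0.636, 0.626 and 0.541 in the others (adjusted p = 0.0200). Nrgn, which encodes the calmodulin-binding neurogranin, differed in a very small share of its transcripts. Its 18 nt 3′ UTR exon, at chr9:37545700-37545717, was at 0.998, 0.999 and 0.999 and then at 0.995, 0.991 and 0.991, a difference of -0.0068 that passed the test (adjusted p = 0.0153) at 6334 to 9188 counts per library.

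Exons of vesicle and motor genes fell as well. Snap91 encodes AP180, which assembles clathrin at synapses, and its 15 nt exon was at 0.968, 0.954 and 0.947 in the controls and at 0.791, 0.718 and 0.807 in the libraries labelled L-DL KD (adjusted p = 0.0157). Cadps encodes CAPS1, which primes dense-core vesicles for release, and had a mostly skipped 12 nt exon that went from 0.324, 0.375 and 0.352 to 0.131, 0.0659 and 0.0683 (adjusted p = 0.0377). Dctn1, the dynactin subunit that binds dynein and microtubules, had a 15 nt exon at 0.856, 0.852 and 0.852 in the controls and at 0.710, 0.645 and 0.586 in the others (adjusted p = 0.0428). The 3 exons differed in how much they were used in the controls, from a minority of transcripts in Cadps to nearly all in Snap91, and in each of them no L-DL KD library reached a control. The 3 other Dctn1 microexons, of 21, 18 and 21 nt, had differences of -0.188, -0.0476 and -0.0865 and did not pass (adjusted p from 0.302 to 0.651).

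The other 3 exons past the adjusted threshold were in genes of actin, cholesterol transport and RNA binding. Abi2, an Abl interactor of the WAVE complex that drives actin branching, had an 18 nt exon at 0.858, 0.870 and 0.814 in the controls and at 0.549, 0.477 and 0.386 in the others (adjusted p = 0.0378). Gramd1a, a cholesterol carrier between plasma membrane and endoplasmic reticulum, had a 12 nt exon at 0.234, 0.220 and 0.149 and then at 0.0434, 0.0558 and 0.0305 (adjusted p = 0.0378). Hnrnpc, a nuclear protein that binds uridine tracts of pre-mRNA, had a 26 nt exon of its 5′ UTR, at chr14:52098015-52098040, that went from 0.765, 0.758 and 0.754 to 0.537, 0.530 and 0.470 (adjusted p = 0.0185). The gene's count did not pass (log2 fold change -0.01, adjusted p = 0.887). All 10 exons kept their direction when any library was left out and with limma and DESeq2, and all 10 passed with DESeq2 (adjusted p from 5.4e-07 to 0.0252). All 10 lost the adjusted threshold without control library c, the highest adjusted p with any library left out was 0.221, and 9 of the 10 lost it with limma (0.0525 to 0.129).

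**Figure D3:**
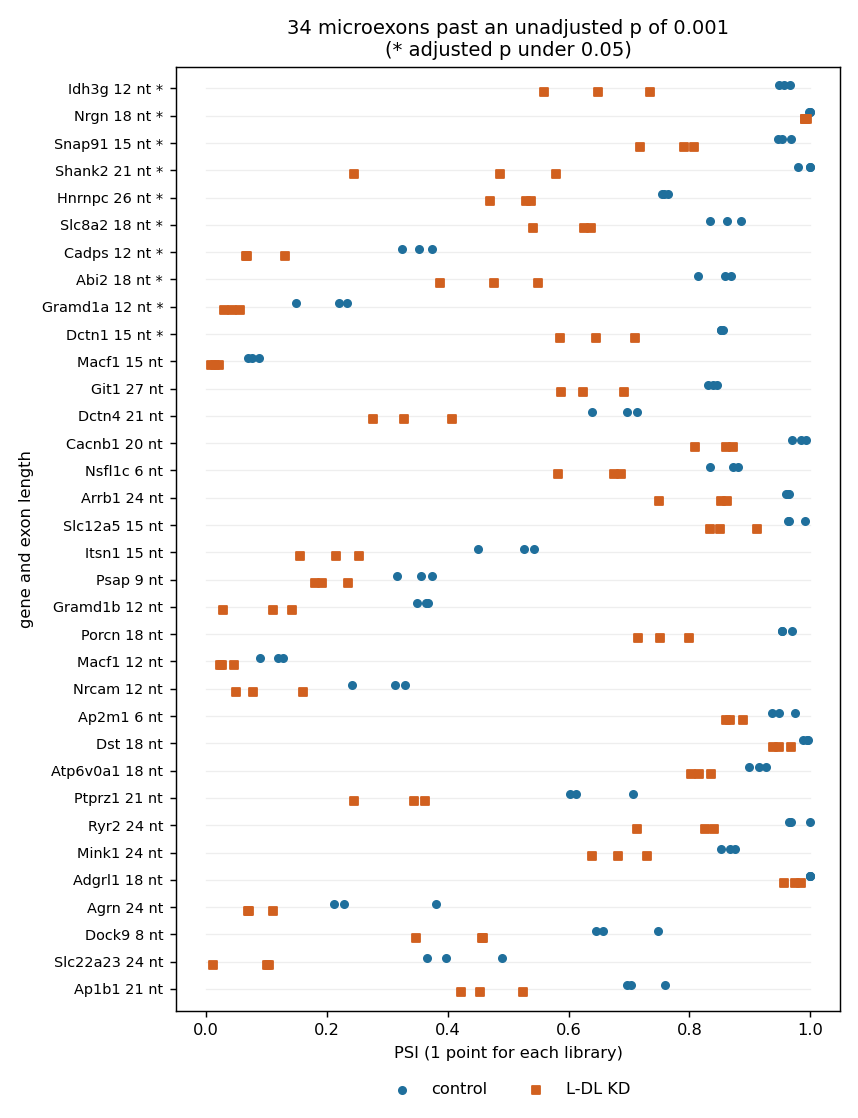
PSI (x axis, share from 0 to 1) in each control library (circles) and each library labelled L-DL KD (squares) for 34 of the 35 microexons with an unadjusted p under 0.001, in order of p from the top, with a star where the adjusted p is under 0.05. In each of the 34, all L-DL KD libraries lie left of all controls.

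A further 25 exons passed only the unadjusted threshold of 0.001, all of them lower, with adjusted p from 0.0553 to 0.102. Git1, which encodes a scaffold and Arf GTPase activator of synapses, had a 27 nt exon at 0.830, 0.845 and 0.840 in the controls and at 0.624, 0.587 and 0.692 in the others. Its adjusted p of 0.0595 became 0.0336 with DESeq2. Intersectin 1 (Itsn1), an endocytic scaffold, had a 15 nt exon within an SH3 domain at 0.525, 0.543 and 0.451 and then at 0.253, 0.216 and 0.156 (adjusted p = 0.0688). In both exons the highest L-DL KD library lay below the lowest control.

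Clathrin adaptors, calcium handling and chloride transport were represented too. Ap2m1, the subunit of AP-2 that binds cargo, had a 6 nt exon, 2 codons long, at 0.949, 0.936 and 0.975 and then at 0.889, 0.867 and 0.860 (adjusted p = 0.0802). Ap1b1, a large subunit of AP-1, had a 21 nt exon at 0.760, 0.697 and 0.703 and then at 0.454, 0.524 and 0.422 (adjusted p = 0.102). Slc12a5 encodes KCC2, the neuronal potassium/chloride cotransporter, and its 15 nt exon was at 0.965, 0.992 and 0.963 and then at 0.912, 0.834 and 0.851 (adjusted p = 0.0627). None of these groups overlapped. The cardiac and neuronal calcium release channel Ryr2 had a 24 nt exon at 1, 0.968 and 0.964 and then at 0.840, 0.713 and 0.827 (adjusted p = 0.0802).

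Agrn encodes agrin, a heparan sulfate proteoglycan of synapses, whose short exons near the 3′ end set its activity at the neuromuscular junction. Its 24 nt exon was at 0.212, 0.229 and 0.380 in the controls and at 0.111, 0.0703 and 0.0687 in the libraries labelled L-DL KD (adjusted p = 0.0953). Its 12 nt exon was at 0.822, 0.799 and 0.752 and then at 0.672, 0.523 and 0.525 (adjusted p = 0.142). Both were lower without overlap. With another neighbouring exon, the same 24 nt exon was listed in a second event of 3 to 78 counts per library. There it was at 0.812, 0.883 and 0.874 and then at 0.902, 1 and 1 (adjusted p = 0.624). The values of this second event ran in the opposite direction, but it did not pass the test.

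Microexons of almost constant inclusion also passed the unadjusted threshold. The 18 nt exon of Adgrl1 (latrophilin 1, an adhesion receptor) was at 1 in all 3 controls, with 0 skipping counts, and at 0.957, 0.975 and 0.984 in the others (adjusted p = 0.0936). The 18 nt exon of Dst, a linker of cytoskeletal filaments, was at 0.987, 0.994 and 0.996 and then at 0.938, 0.949 and 0.968 (adjusted p = 0.0802). At the other end, 2 nested exons of Macf1, of 12 and 15 nt with the same end, were at 0.0898 to 0.127 and 0.0696 to 0.0872 in the controls and at 0.0223 to 0.0464 and 0.00834 to 0.0218 in the others (adjusted p = 0.0765 and 0.0553). The nested exons share their skipping reads and are not separate evidence.

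The remaining exons of this set had PSI differences between -0.0951 and -0.347. The 21 nt exon of Dctn4, another dynactin subunit, differed by -0.347, the 24 nt exon of Slc22a23, a member of a transporter family, by -0.346, and the 21 nt exon of Ptprz1, a receptor tyrosine phosphatase of glia, by -0.324. Gramd1b differed by -0.266, the 8 nt exon of Dock9, an activator of the small GTPase Cdc42, by -0.263, the 6 nt exon of Nsfl1c, a cofactor of the ATPase p97, by -0.215 and the 18 nt exon of Porcn, which acylates Wnt proteins, by -0.203. The 12 nt exon of the adhesion molecule Nrcam differed by -0.198, the 24 nt exon of the kinase Mink1 by -0.182, the 24 nt exon of Arrb1 (beta-arrestin 1) by -0.141, the 20 nt exon of the calcium channel subunit Cacnb1 by -0.135 and the 18 nt exon of the proton pump subunit Atp6v0a1 by -0.0951. Psap, the precursor of the saposins of lysosomes, had a 9 nt exon at 0.317, 0.374 and 0.355 in the controls and at 0.235, 0.192 and 0.180 in the others, from 3568 to 5632 counts per library (adjusted p = 0.0700). This exon had the most counts of any named microexon of 9 nt or less.

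Related genes carry related microexons, and these allow near-identical sequences to be set side by side. The following exons are shown because members of a family can be compared position by position, and the families were picked after the values were seen.
Cpeb2, 24 nt: CAAGGAGTTATGGGCGAAGACGAG
Cpeb3, 24 nt: CCAGGAGCTATGGGCGGAGACGAG
Cpeb4, 24 nt: CAAGGACTTATGGGCGAAGGAGAG
Cacnb1, 20 nt: CCAAACAGAAGCAGAAATCG
Cacnb4, 20 nt: CAAAACAGAAGCAGAAAGTG
Macf1, 18 nt: TTCTTCCTCGGCAATCAG
Dst, 18 nt: TTCTTCCTGGGAAATCAG
Mark2, 27 nt: AAATCTGTCTTTCAGGTTTGCCAGAAG
Mark3, 27 nt: AAACATGTCATTCAGGTTTATCAAAAG
Capitals mark the whole exon. Cpeb2 (chr5:43268869-43268892) and Cpeb3 (chr19:37105791-37105814), which encode proteins that regulate translation through the 3′ end of mRNA, share 21 of 24 positions. Cpeb2 was at 0.908, 0.971 and 1 in the controls and at 0.687, 0.785 and 0.743 in the libraries labelled L-DL KD (adjusted p = 0.232). Cpeb3 was at 0.844, 0.809 and 0.902 and then at 0.70, 0.689 and 0.609 (adjusted p = 0.40). Cpeb4 (chr11:31918801-31918824), which shares 21 of 24 positions with Cpeb2, was at 0.802, 0.743 and 0.654 and then at 0.688, 0.497 and 0.583 (adjusted p = 0.624), and its groups overlapped. All 3 had between 21 and 48 counts per library, and none passed the test.

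The calcium channel subunits Cacnb1 (chr11:98010627-98010646) and Cacnb4 (chr2:52465894-52465913) share 17 of 20 positions. Cacnb1 was at 0.993, 0.971 and 0.985 in the controls and at 0.809, 0.861 and 0.872 in the others (adjusted p = 0.0595). Cacnb4 was at 0.982, 1 and 1 and then at 0.886, 0.941 and 0.794 (adjusted p = 0.171). The 12 nt exons of Gramd1a and Gramd1b share 10 of 12 positions. Gramd1b was at 0.349, 0.363 and 0.367 and then at 0.110, 0.142 and 0.0281 (adjusted p = 0.0741). In the spectraplakins Macf1 (chr4:123364057-123364074) and Dst (chr1:34296742-34296759), 16 of 18 positions were equal, but inclusion was not. Macf1 was at 0.648, 0.567 and 0.676 and then at 0.379, 0.468 and 0.444 (adjusted p = 0.142), where Dst was above 0.9 in every library.

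Microexons with higher inclusion were few, and none passed either threshold. The 12 nt exon of Supt5, a transcription elongation factor, was at 0.733, 0.589 and 0.742 in the controls and at 0.898, 0.818 and 0.853 in the libraries labelled L-DL KD (unadjusted p = 0.0068, adjusted p = 0.204, edgeR). Macf1, whose 12, 15 and 18 nt exons were lower, had a 9 nt exon at 0.388, 0.322 and 0.549 and then at 0.623, 0.672 and 0.609 (adjusted p = 0.262). The related kinases Mark2 (chr19:7279986-7280012) and Mark3 (chr12:111651958-111651984), which act on microtubule-associated proteins, have 27 nt exons equal at 21 of 27 positions. Both were higher without overlap. Mark3 went from 0.329, 0.283 and 0.190 to 0.414, 0.519 and 0.467 (adjusted p = 0.264). Mark2 went from 0.0785, 0.0732 and 0.0440 to 0.176, 0.107 and 0.303 (adjusted p = 0.293). Slc8a1, the paralogue of Slc8a2, had a 21 nt exon at 0.277, 0.361 and 0.360 and then at 0.507, 0.702 and 0.510, opposite in direction to Slc8a2 but from only 22 to 59 counts per library (adjusted p = 0.419).

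The other named exons that were higher without overlap had differences of 0.122 in Trappc13 and 0.120 in Gon4l, 0.10 in Sgce, which encodes epsilon-sarcoglycan, and 0.0739 in the event listed under Ctage5, whose exon the annotation places in Mia2. Spag9, a scaffold of JNK kinases, had a 15 nt exon listed at 0 in all 3 controls and at 0.0241, 0.0055 and 0.0094 in the other libraries. Adjusted p was between 0.373 and 0.728 for these 5.

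Several well covered microexons differed by little. The 27 nt exon of Max, the partner of Myc, was at 0.418, 0.519 and 0.497 in the controls and at 0.435, 0.513 and 0.481 in the libraries labelled L-DL KD (difference -0.0019, adjusted p = 0.998). The 12 nt exon of Commd6, of a family that acts in endosomal sorting, was at 0.763, 0.735 and 0.843 and then at 0.737, 0.751 and 0.846 (difference -0.0022, adjusted p = 0.997). The 20 nt exon of the ribosomal protein gene Rps24, whose reads can be shared with processed copies elsewhere in the genome, differed by -0.0423, the 27 nt exon of Ahi1, a gene of the primary cilium, by -0.0352, and the 18 nt exon of the kinase scaffold Mapk8ip3 by -0.0304, all with overlapping groups. A 27 nt exon of Kif1a, a motor of synaptic vesicle precursors, was at 0.222, 0.212 and 0.217 and then at 0.199, 0.201 and 0.20, a difference of -0.0169 without overlap (adjusted p = 0.877). Another 27 nt exon of Kif1a was at 0.587, 0.486 and 0.456 and then at 0.394, 0.263 and 0.245 (adjusted p = 0.137). Neither Kif1a exon passed the adjusted threshold, and whether their changes differed was not tested.

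Groups of host genes by role, listed with earlier results known, were described by counts. Over all 421 exons, 43.0% were lower without overlap and 2.61% higher, with a median difference of -0.0725, and over all 18829 events 10.8 and 7.61%. At the adjusted threshold 2.38% of the 421 exons and 0.186% of all events were called lower, and at the unadjusted threshold of 0.001 8.31 and 0.738%. Of 13 tested exons in genes of transcription, chromatin and translation, 9 (69.2%) were lower without overlap and 0 higher, with a median difference of -0.181. The translation initiation factor genes Eif4g1 and Eif4g3 had 21 nt exons at 0.560, 0.499 and 0.546 and at 0.606, 0.508 and 0.654 in the controls, and at 0.405, 0.25 and 0.201 and at 0.416, 0.182 and 0.110 in the libraries labelled L-DL KD (adjusted p = 0.127 and 0.15). The 24 nt exon of Mef2a, a neuronal transcription factor, was at 0.643, 0.728 and 0.672 and then at 0.497, 0.494 and 0.404 (adjusted p = 0.172). All 13 differences in this group were negative, although 0 of 13 reached the adjusted threshold or the unadjusted one of 0.001.

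Of 26 exons in genes of vesicle and membrane traffic, 17 (65.4%) were lower and 0 higher (median -0.157), and 2 (7.69%) passed the adjusted threshold, those of Snap91 and Cadps above. Picalm, another clathrin assembly protein, had a 24 nt exon at 0.530, 0.505 and 0.551 and then at 0.415, 0.345 and 0.362 (adjusted p = 0.209). Zfyve27, a protein of neurite growth, had a 21 nt exon at 0.609, 0.706 and 0.671 and then at 0.405, 0.496 and 0.414 (adjusted p = 0.25). The 24 nt exon of Bin1, which shapes tubular membranes, was at 0.669, 0.464 and 0.722 and then at 0.208, 0.155 and 0.0499 (adjusted p = 0.142). All 3 exons of the phosphatase gene Synj1 were lower without overlap, by -0.0542 to -0.189, while the 3 exons of Cadps2 differed by -0.0228 to 0.0094 and overlapped.

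Of 45 exons in genes of the cytoskeleton and small GTPases, 22 (48.9%) were lower, a share near that of all microexons, and 1 was higher (median -0.0750). The unadjusted threshold of 0.001 was passed by 8 (17.8%). The microtubule plus-end proteins Clasp1 and Clasp2 had 3 and 5 tested exons, and 1 exon of each was lower without overlap. Clasp1 had its 27 nt exon at 0.713, 0.610 and 0.773 in the controls and at 0.314, 0.436 and 0.438 in the others, from 23 to 51 counts per library (adjusted p = 0.301), and 2 exons of 24 nt that overlapped. Its 3 nt exon, 1 codon long, had 0 to 13 counts per library and was not tested.

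Of 35 exons in genes of adhesion and receptors, 10 (28.6%, against 43.0% of all microexons) were lower and 0 higher (median -0.0625). The presynaptic phosphatase receptor Ptprd had 6 tested exons, of which 1 was lower without overlap: the 9 nt exon, at 0.818, 0.763 and 0.806 in the controls and 0.602, 0.522 and 0.720 in the others (adjusted p = 0.423). Of 8 exons in genes of kinases, phosphatases and scaffolds, 4 were lower and 1 higher (50% and 12.5%, median -0.0648). The neuronal 18 nt exon of Src was lower, at 0.776, 0.753 and 0.760 and then at 0.647, 0.697 and 0.522 (adjusted p = 0.367).

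**Figure D4:**
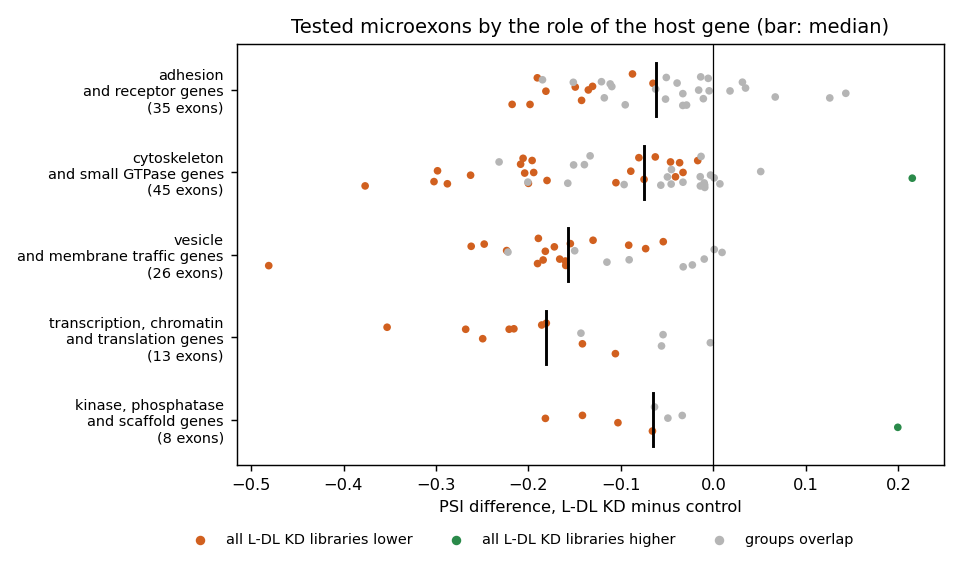
PSI difference (L-DL KD minus control, x axis) of each tested microexon in the 5 groups of host genes by role, with 1 point for each exon and a bar at the median of the group. Medians run from -0.0625 in adhesion and receptor genes to -0.181 in genes of transcription, chromatin and translation, and 2 exons with all L-DL KD libraries higher are those of Macf1 and Mark3.

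The shortest microexons were measured only in part. The 8 listed events of 3 nt included 3 that were tested, and the 3 nt exon with the most counts, in Spp1 (osteopontin), was at 0 in 5 libraries and at 0.0017 in the other, and was not tested for lack of inclusion counts. The 4 nt exon of Mpc1, a mitochondrial pyruvate carrier, was at 0.864, 0.521 and 1 in the controls and at 0.367, 0.179 and 0.602 in the libraries labelled L-DL KD, from 10 to 43 counts, with overlap (adjusted p = 0.375). The 8 nt exon of Dock9 was at 0.747, 0.646 and 0.656 and then at 0.459, 0.456 and 0.347 (adjusted p = 0.0985), without overlap. Among the 15 tested events of 6 nt were those of Nsfl1c, at 0.872, 0.834 and 0.881 and then at 0.686, 0.674 and 0.582 (adjusted p = 0.0595), and of Git2, the paralogue of Git1, at 0.205, 0.513 and 0.406 and then at 0.117, 0.212 and 0.343 with overlap (adjusted p = 0.656).

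Host genes of microexons changed in expression more often downward. Of 349 host genes in the gene test (edgeR with TMM scaling, 17621 genes), 93 (26.6%) fell and 57 (16.3%) rose at an adjusted p under 0.05, against 15% and 15.6% of all genes. Among 165 host genes of microexons that were lower without overlap, 53 (32.1%) fell and 18 (10.9%) rose. Among 184 host genes of the other tested microexons, 40 (21.7%) fell and 39 (21.2%) rose. In host genes that fell, the median PSI difference was -0.101 over 133 events. It was -0.0745 over 252 events in genes that did not pass and -0.0396 over 65 in genes that rose. All L-DL KD libraries were lower without overlap in 64 (48.1%), 107 (42.5%) and 18 (27.7%) of these. This share was 42.3% of all tested microexon events and 10.8% of all events. At the adjusted threshold 4, 6 and 0 were called lower. Examples of exons with lower inclusion in host genes that rose are the 6 nt exon of Nsfl1c (log2 fold change of the gene 0.26, adjusted p = 0.0257) and the 18 nt exon of Dst (0.61, adjusted p = 0.0036). Among genes that fell, Git1 changed by -0.63 (adjusted p = 0.0004), Cacnb1 by -0.86 (adjusted p = 0.000571) and Slc12a5 by -0.73 (adjusted p = 0.000435) on the log2 scale. Since neuronal markers fell and microglial markers rose in the same libraries, the part of cell type shifts in these host gene changes was not tested.

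Genes that regulate microexons or act with L-DL were measured in the same libraries. Of 35 listed and tested, 12 fell (34.3%, against 15% of all genes), 6 rose (17.1%, near the 15.6% of all genes) and 17 did not pass. Srrm3, a neuronal activator of microexons, was at 66.4, 59.6 and 62.6 CPM in the controls and at 33.6, 31.9 and 26.0 CPM in the libraries labelled L-DL KD (log2 fold change -1.04, standard error 0.11, adjusted p = 0.000435). Its paralogue Srrm4 did not pass the test: it was at 57.9, 63.8 and 63.8 CPM and then at 62.6, 75.5 and 94.4 CPM (log2 fold change 0.33, adjusted p = 0.113), and passed as higher without L-DL KD replicate 1 (0.46, adjusted p = 0.0090). Srrm3 levels thus differed without overlap, and those of Srrm4 overlapped.

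Several genes of neuronal RNA-binding proteins fell, and Ptbp1 and Ptbp3 rose. The Rbfox genes, which bind beside many neuronal exons, fell by 1.35 (Rbfox3), 0.90 (Rbfox2) and 0.46 (Rbfox1) on the log2 scale, with adjusted p of 0.000135, 0.000135 and 0.0064. Rbfox3, itself a neuronal marker, was at 248, 245 and 256 CPM in the controls and at 111, 96.8 and 85.9 CPM in the others. The neuronal Elavl genes fell by 1.28 (Elavl2), 1.16 (Elavl4) and 0.26 (Elavl3), Khdrbs3 fell by 1.19 and Celf4 by 0.59. Ptbp1, the repressor of neuronal exons in other cells, was at 40.7, 42.2 and 40.5 CPM and then at 61.7, 51.8 and 70.9 CPM (log2 fold change 0.58, adjusted p = 0.0068), Ptbp3 rose by 0.47 on the log2 scale and the neuronal Ptbp2 fell by 0.35. Most of these proteins are made mainly in neurons or mainly in other cells, and the neuronal and microglial marker lists moved in the same libraries.

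Smaller changes were seen in the general splicing genes. U2af2, which encodes the large subunit of U2AF, fell by 0.34 on the log2 scale (adjusted p = 0.0063) and Rnps1, a protein of the exon junction complex, by 0.23 (adjusted p = 0.0251). Hnrnpk and Hnrnpu rose by 0.23 and 0.24, Nova1 by 0.27 and Qk by 0.21. These 4 rises and the falls of Rnps1 and Elavl3 lost the threshold, with an adjusted p of up to 0.146, without each of several single libraries, among them control replicates 1 and 2 and L-DL KD replicate 2 for all 6. Srsf11, a partner of SRRM4 at microexons, had a log2 fold change of -0.23 (adjusted p = 0.0502, and 0.0352 with DESeq2), and passed without control replicate 1 or L-DL KD replicate 3. The other listed genes, among them U2af1, Sf3b1, Sf3b3, Srsf1, Srrm2, Hnrnpa1 and Hnrnpc, did not pass. Without L-DL KD replicate 1, however, Nova2 passed with a log2 fold change of -0.61 (adjusted p = 0.0013), Sf3b1 with 0.37 (adjusted p = 0.0074), Srsf1 with 0.27, Mbnl1 with 0.26 and Hnrnpd with -0.29.

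**Figure D5:**
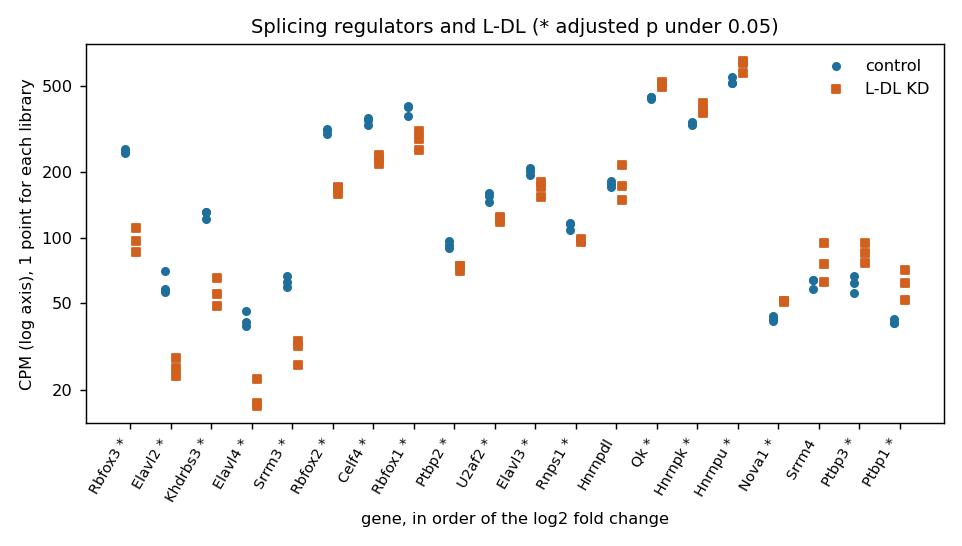
Level in CPM (log axis) of each regulator past the adjusted threshold of 0.05 (star), with Srrm4 and Hnrnpdl beside them, in each control (circles) and each library labelled L-DL KD (squares), from the largest fall on the left to the largest rise on the right. Srrm3 lies at 59.6 to 66.4 CPM in the controls and 26.0 to 33.6 CPM in the others, while Srrm4 and Hnrnpdl overlap.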

How the data were processed

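Poly(A) RNA of 6 hippocampus samples, 3 in each group, was read in pairs of 150 nt and aligned to GRCm38 by the authors. They deposited unnormalized counts of reads for each Ensembl gene, and rMATS output that holds inclusion and skipping counts for each library with the effective lengths of both forms (skipping form 149 nt for each event listed here). Submitters' processing notes name HISAT2 2.1.0, HTSeq 0.6.1 and Bowtie 1.1.2 without their roles, and strand use in counting is not given in the sources used here. Junction counts per library summed to 6760349 to 7939931 over all events. The rMATS PSI, p-value, FDR and PSI difference columns hold the authors' own comparison and were not used. The splicing table numbers its groups only. Group 1 was read as the knockdown because the study defines its PSI difference as L-DL KD minus control, which in rMATS is group 1 minus group 2, and as a check 466 of 467 genes moved the same way in its junction totals as in the gene counts.

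PSI was recomputed from the counts and lengths. The counts of both forms (12 columns) were tested by edgeR (version 4.0.16) quasi-likelihood with an effect for each library, for inclusion and for inclusion by group, over the 18829 events that averaged at least 20 counts in a library and at least 1 for each form. For genes, edgeR's quasi-likelihood test with TMM scaling was run on those that had 10 or more counts in 3 or more libraries. Benjamini-Hochberg adjustment ran over all events and over all genes. Both models were tested on simulated data. Alternatives used limma (version 3.58.1, pseudocount 0.5), DESeq2 (version 1.42.0), other scaling and filters, 1 event per exon, other length limits and leaving out each library, with Python (version 3.11.15, pandas 2.3.3) and R (version 4.3.3).

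Members, gene lists and tests were chosen with earlier results of these data known. Named were the exons of Git1, Agrn and Clasp1, all exons past an adjusted p of 0.05 or an unadjusted p of 0.001, further exons without overlap in order of p up to 10 in each direction, 6 well covered exons at control PSI 0.2 to 0.8 with a difference under 0.05, and the exon with the most counts at each length of 3 to 9 nt, 58 in all. Other exons in the groups by role, the exons of related genes, a second Kif1a exon and the further Dctn1 and Git2 exons were named after their values were seen. Motifs in the neighbouring introns were not analysed here. Some exons that these rules name are not reported here.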

Additional observations from a re-analysis of the deposited data

How the results depend on the processing

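Microexon events called lower at the adjusted threshold numbered 10, against 2 with limma, 25 with DESeq2, 22 with TMM scaling, 19 with no filter, 5 for exons of 3 to 15 nt, and 0 to 12 with each library left out in turn (1, 1 and 0 without control libraries a, b and c, and 12, 1 and 4 without L-DL KD libraries a, b and c). At the unadjusted threshold of 0.001 the 37 lower events became 16 with limma, 16 for 3 to 15 nt and 13 to 33 with a library left out, and 1 event was higher with no filter. Events lower without overlap numbered 66 and those higher 3 for exons of 3 to 15 nt, where the median PSI difference was -0.0912. With a library left out, 212 to 234 were lower and 17 to 23 higher, with a median of -0.0804 to -0.0698, and with no filter the median was -0.0401. Minimum means of 10 or 50 counts, 1 event per exon, a length that is a multiple of 3 and PSI without effective lengths moved none of these counts by over 1.5 times. Host genes that fell numbered 68 to 109 and those that rose 41 to 78 with a library left out.

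The PSI difference changed sign when some single library was left out for the exons of Commd6 (-0.0362 to 0.0291) and Max (-0.0320 to 0.0190). Among regulators that did not pass, the log2 fold change turned to 0.0081 for Hnrnpab and 0.0173 for Hnrnpc with scaling by library size, and with a replicate left out it ran from -0.0916 to 0.104 for Hnrnpab, from -0.0478 to 0.0150 for Hnrnpc, from -0.127 to 0.144 for Hnrnpdl, from -0.0371 to 0.306 for Khdrbs2, from -0.126 to 0.0096 for Sf3b3 and from -0.0036 to 0.114 for Srrm2. Gene count libraries with the same replicate number did not deviate together (correlations 0.067, 0.179 and -0.163). These values show no pairing by number, but with so few libraries they cannot exclude one. With the replicate block 83 host genes fell and 51 rose, Rnps1, Hnrnpk, Hnrnpu and Qk no longer passed and Sf3b1 did. No paired analysis was possible because the splicing columns carry no replicate numbers for the junction test. Causes of these changes were not tested. At 20 to 50 counts per library, 0 of 144 events passed the adjusted threshold, so that for such exons a difference may not be detectable at this depth.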
